A study of Mus musculus with 22 samples.

Results

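Voltage-gated ion channel genes were examined in hnRNP A1 CLIPseq of mouse spinal cord, as the protein-coding genes of the GRCm38 annotation whose symbols name sodium channel subunits (Scn with a number and a or b), calcium channel subunits (Cacna1, Cacna2d, Cacnb and Cacng), potassium channel subunits (Kcn) or hyperpolarisation-activated channels (Hcn with a number). The rule found 138 of 21951 protein-coding genes, and 2110 of the 136207 footprints of all mice overlapped them by at least 1 nt. A footprint is a stretch of genome where RNA recovered with hnRNP A1 was retained after the authors removed sites also present in the input or in the IgG control, and only its position is given, with no read count, score or strand. The choice by symbol also gathered potassium channels that are not gated by voltage in the strict sense, such as the inward rectifiers (Kcnj), the leak channels (Kcnk) and the calcium-activated channels (Kcnn), and the calcium gamma genes whose products accompany glutamate receptors.

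Spinal cords came from 10 female wild-type C57Bl/6 mice, each giving 1 anti-hnRNP A1 immunoprecipitation. The 3 naive mice (1, 2 and 3) received no disease induction and were age-matched. The 7 other mice had experimental autoimmune encephalomyelitis (EAE), an inflammatory and demyelinating disease raised by immunisation with the MOG(35-55) myelin peptide in complete Freund's adjuvant and pertussis toxin. Immunisation was at 12 weeks of age by the treatment protocol and at 8 weeks by the design text, and cords were taken 15 days after clinical onset. Mild EAE mice 3, 4 and 7 had clinical scores of 1.5, 1.5 and 1, and severe EAE mice 1, 2, 5 and 6 had scores of 2.5, 3, 2.5 and 3. Whole cord was used, so fewer cells of a type and less RNA per cell cannot be told apart. The matched inputs and the pooled IgG libraries were not analysed here.

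Voltage-gated channels open in response to a change in membrane potential and carry the currents of the action potential. Pore-forming sodium alpha subunits drive its upstroke, calcium alpha1 subunits couple it to transmitter release and gene expression, and potassium alpha subunits repolarise the membrane, while beta, alpha2delta, gamma and other auxiliary subunits set trafficking and gating. Their transcripts are long and extensively spliced, and hnRNP A1 is a nuclear RNA-binding protein that regulates splice site choice and has a known preference for UAG.

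The 3 naive lists held 17119 to 17494 footprints, the mild EAE lists 9751 to 24433 and the severe EAE lists 209 to 31870. Severe EAE mouse 5 had the largest list of all mice, and severe EAE mouse 2 had 152 footprints in protein-coding genes. The lists hold only retained sites and the read depth behind a footprint is unknown, so a gene without a footprint is one where no site was retained. Of 12 neuronal marker genes, 8 to 10 were footprinted in naive mice, 7 to 10 in mild EAE mice and 1, 0, 9 and 0 in severe EAE mice 1, 2, 5 and 6. Cholinergic neurons were not marked by their defining gene, since Chat had no footprint in any mouse. The naive mice 1, 2 and 3 had footprints in 0, 1 and 0 of 10 immune marker genes, the mild EAE mice in 6 to 9 and the severe EAE mice in 3, 0, 8 and 4. Oligodendrocyte markers had footprints in 7 or 8 of 8 genes in naive mice and 5 to 7 in mild EAE mice, and astrocyte markers in 3 to 5 and 4 to 6 of 7 genes.

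The sites held by the most mice included intronic stretches with many UAG and coding stretches without it. Examples of the intronic kind are printed below on the strand of the gene, as the 30 bases of the stretch with the most UAG, with UAG (TAG in genomic DNA) in capitals. They were chosen, with their counts known, among the sites that 5 to 7 mice shared and that no other annotated gene overlaps.
Kcnmb4 intron, chr10:116469279-116469308, minus strand: TAGtTAGgTAGgTAGaTAGatgaTAGgTAG
Cacna1a intron, chr8:84451650-84451679, plus strand: TAGgtaagaagatggagagTAGaTAGcTAG
Cacna2d2 intron, chr9:107500027-107500056, plus strand: aggTAGaTAGaTAGgTAGacaggTAGtTAG
Kcnb2 intron, chr1:15326745-15326774, plus strand: agaTAGggaTAGggaTAGgaaTAGagatgg
The Kcnmb4 site, in an intron of the gene for an auxiliary subunit of the large-conductance calcium-activated potassium channel, lay in the footprints of 7 mice, all 3 naive, all 3 mild EAE and severe EAE mouse 5. Its shared stretch of 126 nt held 19 UAG and was 86.5% repeat-masked. The Cacna1a stretch, 107 nt in the gene for the pore of the P/Q-type calcium channel, held 9 UAG with 0% repeat-masked and was also shared by 7 mice. The Cacna2d2 stretch of 145 nt held 15 UAG, was 84.8% repeat-masked and was shared by 6 mice. The Kcnb2 stretch of 126 nt held 13 UAG, was 74.6% repeat-masked and was shared by 5 mice.

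Coding stretches shared by 5 to 7 mice held no UAG. They are shown beside the intronic ones because they make up the other main class of recurrent sites, and are printed as the middle 30 bases.
Cacna1a coding exon, chr8:84559637-84559666, plus strand: ccgacacgggccgccggcccacgacgacag
Hcn2 coding exon, chr10:79730893-79730922, plus strand: acttccgccagaagatccacgattactatg
Kcnt1 coding exon, chr2:25894364-25894393, plus strand: tcaactgtgggcttcggtgatgtgacgccc
The Cacna1a exon was covered in 7 mice. The Hcn2 stretch, in a gene for a pacemaker channel, was covered in 6 mice, among them naive mouse 1, all 3 mild EAE mice and severe EAE mouse 1. The Kcnt1 stretch, in the gene for a sodium-activated potassium channel, was covered in all 3 naive and all 3 mild EAE mice and in no severe EAE mouse.

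Channel genes were footprinted more often than protein-coding genes in general, and they are also longer. A footprint in at least 1 mouse was found for 88 of the 138 channel genes (63.8%), against 9999 of 21951 protein-coding genes (45.6%). The median span was 41980.5 nt for channel genes and 17403 nt for all protein-coding genes, and within the channel genes it was 96185.5 nt for those with a footprint and 13396 nt for those without. Among genes at least as long as the median channel gene, 61 of 69 channel genes (88.4%) and 4375 of 5846 protein-coding genes (74.8%) had a footprint. The other 50 channel genes had no footprint in any mouse.

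Naive mice had more footprinted channel genes than mild EAE mice, with overlap. The naive mice 1, 2 and 3 had footprints in 53, 67 and 48 channel genes, and the mild EAE mice 3, 4 and 7 in 35, 38 and 50. The severe EAE mice 1, 2, 5 and 6 had footprints in 15, 0, 63 and 5. Means were 56 ± 9.85 (SD, n = 3), 41 ± 7.94 (SD, n = 3) and 20.8 ± 28.8 (SD, n = 4). The severe group spanned nearly the whole range of the study, since mouse 5 lay among the naive mice and the other severe mice lay below every naive and mild EAE mouse.

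**Figure D1:**
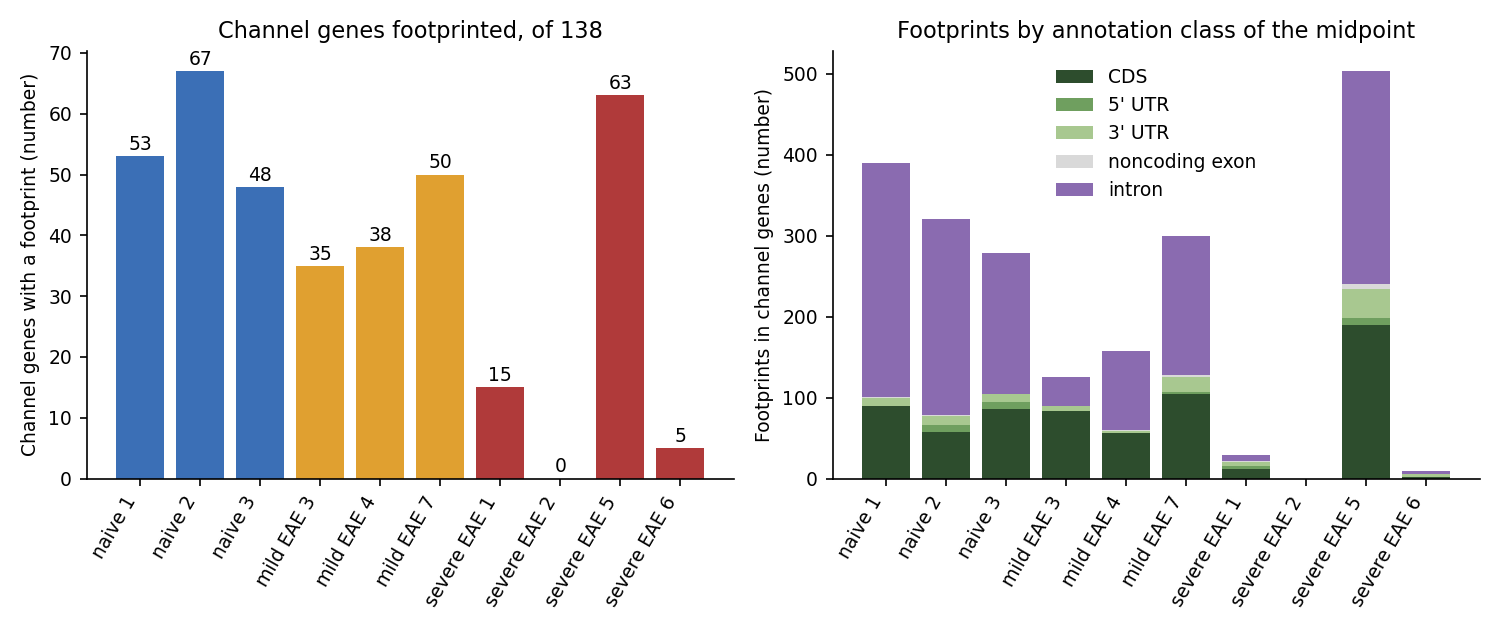
Channel genes with a footprint in each mouse (left, number of 138 genes, bar labels give the count) and footprints in channel genes by annotation class of their midpoint (right, number, stacked). Naive mice had 174 to 289 intronic and 58 to 89 coding (CDS) footprints, mild EAE mice 36 to 171 intronic and 56 to 104 coding ones, and severe EAE mouse 2 none.

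Against the size of each list, channel genes took a larger share of footprints in naive mice than in most EAE mice. Of footprints in protein-coding genes, 2.69%, 2.15% and 1.85% lay in channel genes in naive mice 1, 2 and 3. Mild EAE mice 3, 4 and 7 had 0.978%, 1.91% and 1.39%. The exact (Clopper-Pearson) 95% intervals were 1.64 to 2.08% for naive mouse 3 and 1.62 to 2.23% for mild EAE mouse 4, so these groups overlapped. Severe EAE mice 1, 5 and 6 had 1.38%, 1.78% and 1.78%. In severe EAE mouse 2 the share was 0 of 152 footprints, with an exact upper limit of 2.4%, or 1.97% by the rule that a count of 0 allows 3 counts. These intervals and limits cover counting error only.

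Intronic footprints made up a larger share in naive than in EAE mice. Intronic midpoints made up 74.1%, 75.6% and 62.4% of channel gene footprints in naive mice, and 28.6%, 61.8% and 57.2% in mild EAE mice, means of 70.7 ± 7.26% (SD, n = 3) and 49.2 ± 18% (SD, n = 3). In severe EAE the share was 24.1% of 29 footprints in mouse 1, 52.3% of 503 pairs of footprint and gene in mouse 5 and 33.3% of 9 in mouse 6. Every naive mouse lay above every EAE mouse that had a channel footprint, with naive mouse 3 only just above mild EAE mouse 4. Over all protein-coding genes the intronic share was 30.4 to 44.9% in naive mice, 14.1 to 27.9% in mild EAE mice and 22.4 to 42.1% in severe EAE mice.

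In covered nucleotides, introns separated naive from mild EAE mice only without Kcnq1, a choice made after the data were seen for the reason given further on. Over all channel genes, introns had 50475, 35312 and 29471 covered nt in naive mice and 6337, 17472 and 31175 nt in mild EAE mice, where mild EAE mouse 7 lay above naive mouse 3. Without Kcnq1, channel introns had 33144, 25786 and 19730 covered nt in naive mice 1, 2 and 3 and 3934, 8837 and 16895 nt in mild EAE mice 3, 4 and 7. The lowest naive mouse then lay above the highest mild EAE mouse. Channel exons without Kcnq1 had 11166, 8311 and 11374 covered nt in the naive mice and 8189, 5334 and 14119 nt in the mild EAE mice, where mouse 7 lay above all naive mice. Severe EAE mouse 5 had 31886 intronic and 27598 exonic nt, and severe EAE mice 1 and 6 had 464 and 378 intronic and 2713 and 637 exonic nt.

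Intronic footprints of channel genes lay far from exons, in genes that are long. The distance was not measured for other genes or for introns at large, so it cannot be called particular to these footprints. Without Kcnq1, the median distance to the nearest exon of the gene was 21789.5 to 35723 nt in naive mice and 13666 to 45275 nt in mild EAE mice. Between 2.34 and 6.25% of them lay within 300 nt of an exon in naive mice. Of the 679 coding footprints of all mice, 107 matched a whole exon to within 2 nt at both ends.

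The members are described next by their roles, with covered nucleotides (nt of the gene span under footprints) as the quantity throughout. The 27 genes chosen by rule are the 2 most covered of each role, those whose groups did not overlap and those footprinted in the most mice, and the values of 25 of them in each mouse are shown in the map of covered nucleotides. Other genes are named after their values were seen.

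**Figure D2:**
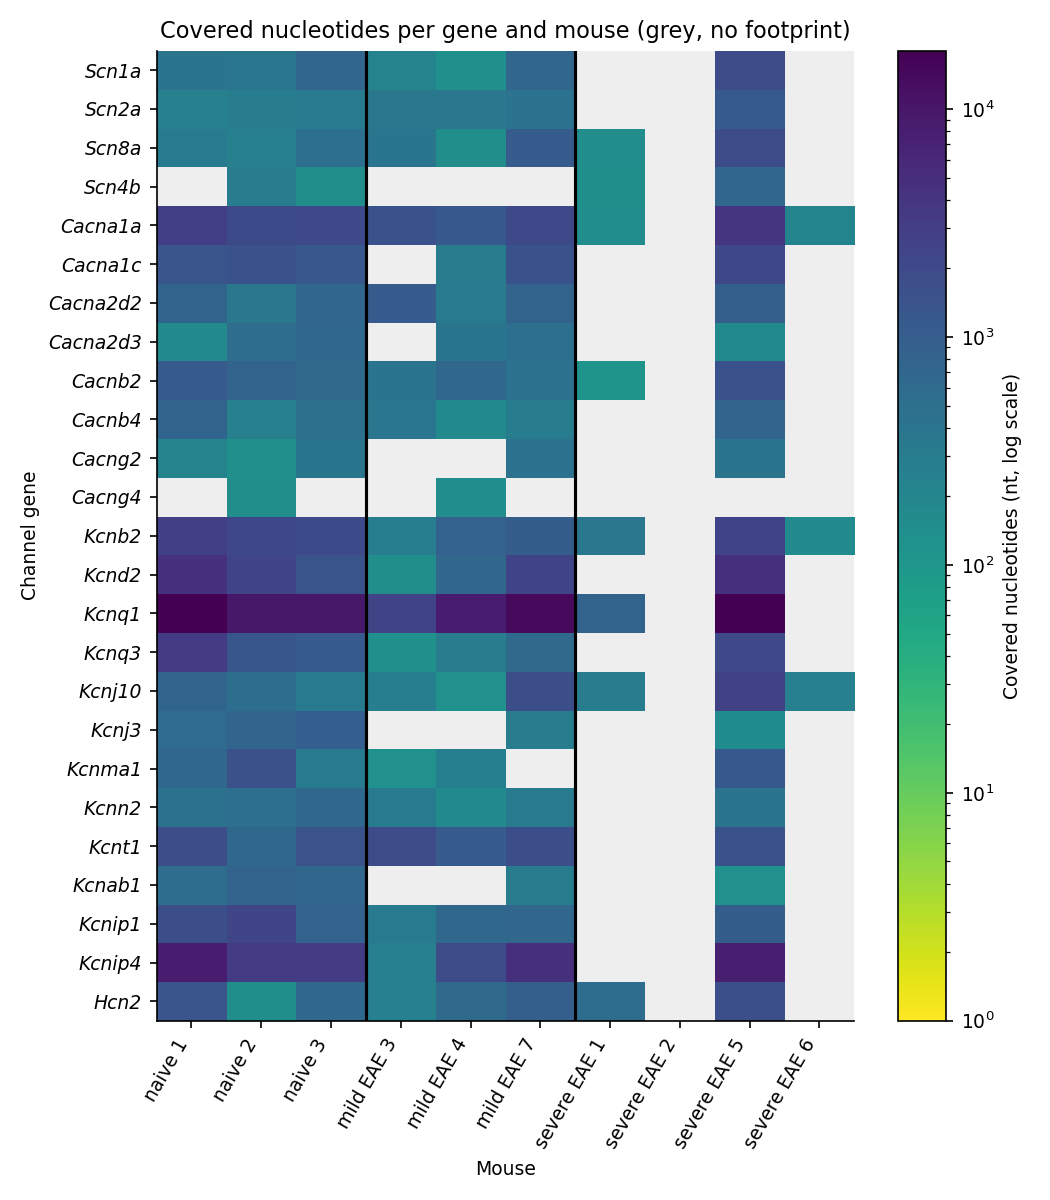
Covered nucleotides (nt, log colour scale) of 25 of the channel genes named by rule (rows, ordered by role) in each of the 10 mice (columns, black lines between naive, mild EAE and severe EAE), with grey for no footprint. Severe EAE mouse 2 is grey throughout, and severe EAE mouse 5 is filled for all but Cacng4.

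Of the 10 sodium alpha genes, 5 were footprinted, each in at least 5 mice. These were Scn1a, Scn2a, Scn3a, Scn8a and Scn9a, of which Scn1a, Scn2a and Scn8a encode the main sodium channels of the central nervous system and Scn8a that of the node of Ranvier. Those without a footprint included Scn4a of skeletal muscle, and Scn10a and Scn11a of peripheral sensory neurons. Scn8a had 303, 254 and 502 nt in naive mice, 407, 144 and 1040 nt in mild EAE mice and 148, 0, 1835 and 0 nt in severe EAE mice 1, 2, 5 and 6. The naive and mild EAE mice overlapped, and 29 of its 39 footprints were coding.

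Scn2a was the channel gene with every mild EAE mouse above every naive mouse. It had 254, 297 and 309 nt in naive mice and 353, 365 and 439 nt in mild EAE mice, a difference of 99 nt (exact permutation p = 0.1, two-sided, the smallest that 3 against 3 mice can give). In severe EAE it had 1126 nt in mouse 5 and none in the other mice. It was 1 of 53 channel genes tested, where 259 of 5481 protein-coding genes (4.73%) had the same order. Sodium alpha genes are near-identical in places, and 2 of its 19 coding footprints, in mild EAE mice 3 and 4, shared a run of 30 bases with footprints of the same mice in Scn3a and Scn9a. Without them Scn2a had 223, 211 and 439 nt in mild EAE mice, and the groups overlapped. Scn3a, named after its values were seen, had 130, 154 and 144 nt in mild EAE mice and 0, 0, 128 and 0 nt in severe EAE mice, the 1 channel gene with every mild EAE mouse above every severe EAE mouse, against 2.63% of all genes. Its naive mice had 0, 0 and 192 nt. Of its 6 coding footprints, 5 shared such a run with Scn1a, Scn2a or Scn9a, so this signal cannot be assigned to Scn3a.

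Scn4b, which encodes an auxiliary beta subunit of sodium channels, was footprinted in 4 mice. It had 0, 284 and 142 nt in naive mice, none in mild EAE mice and 136, 0, 718 and 0 nt in severe EAE mice. Cacna1a, Kcnb2 and Kcnj10 were each footprinted in every mouse but severe EAE mouse 2.

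Among calcium alpha1 genes, 8 of 10 were footprinted, each in at least 3 mice, and Cacna1f of retina and Cacna1s of skeletal muscle were not. Cacna1a held 161 footprints, of which 124 were coding. It had 2929, 2000 and 2065 nt in naive mice, 1509, 1193 and 2051 nt in mild EAE mice and 147, 0, 4075 and 216 nt in severe EAE mice. Mild EAE mouse 7 overlapped the naive mice. Its exonic part alone was 1807, 1183 and 1229 nt against 1357, 853 and 1270 nt, and its intronic part 1122, 817 and 836 nt against 152, 340 and 781 nt, the intronic part without overlap between naive and mild EAE.

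Cacna1c, the main L-type pore of heart and brain, had 1361, 1550 and 1278 nt in naive mice and 0, 295 and 1522 nt in mild EAE mice, which overlapped. Of the auxiliary calcium subunits, Cacna2d2 had 767, 358 and 698 nt in naive mice against 1100, 312 and 805 nt in mild EAE mice, and 56 of its 63 footprints were coding. Cacna2d1, whose protein binds gabapentin, had 486, 381 and 272 nt against 152, 146 and 154 nt and no overlap. The 2 alpha2delta genes thus differed in class and in order, with 14 of 15 Cacna2d1 footprints intronic. Cacnb2 held 36 intronic footprints of 37, with 1127, 797 and 601 nt in naive mice and 408, 693 and 467 nt in mild EAE mice, whereas Cacnb4 ranged from 248 to 778 nt and from 173 to 387 nt. Of the gamma genes, Cacng2, which encodes a partner of glutamate receptors, had 131 to 393 nt in naive mice and Cacng4 had footprints in 2 mice.

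Without Kcnq1, potassium pore genes held 393 of 926 intronic footprints (42.4%) and potassium auxiliary genes 294. Of the 40 genes for voltage-gated alpha subunits, 26 were footprinted and 17 of them in at least 3 mice. Kcnd2, the A-type channel of dendrites, had 109 footprints, all intronic, with 4521, 2303 and 1406 nt in naive mice, 141, 720 and 2480 nt in mild EAE mice and 4710 nt in severe EAE mouse 5 alone of the severe mice. Kcnip4, whose protein binds these A-type channels, had 197 footprints, all intronic, with 8585, 3105 and 3151 nt in naive mice, 252, 1911 and 4562 nt in mild EAE mice and 7725 nt in severe EAE mouse 5 alone. Both genes overlapped between naive and mild EAE through mild EAE mouse 7.

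Kcnt1 and Kcnj10 were mostly exonic. Kcnt1, with 80 of 97 footprints coding, had 1780, 673 and 1498 nt in naive mice and 1853, 1067 and 1681 nt in mild EAE mice, which overlapped. Kcnj10, the inward rectifier of astrocytes and oligodendrocytes that buffers potassium, had 30 of 40 footprints in its 3′ UTR. It had 756, 525 and 304 nt in naive mice, 270, 128 and 1723 nt in mild EAE mice and 295, 0, 2685 and 249 nt in severe EAE mice. The groups overlapped (EAE against naive, exact permutation p = 0.817, two-sided). Of the HCN genes, which carry the pacemaker current, Hcn2 was footprinted in 8 mice with 1366, 136 and 680 nt in naive mice, 254, 611 and 941 nt in mild EAE mice and 559, 0, 1634 and 0 nt in severe EAE mice.

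For the comparison of naive with mild EAE, 53 channel genes and 5481 protein-coding genes were footprinted in at least 3 mice and tested. In 9 channel genes (17%) every naive mouse lay above every mild EAE mouse, against 294 of all genes tested (5.36%), and the opposite order was seen in Scn2a alone. The 9 genes were Kcnb2, Kcnip1, Kcnq3, Kcnma1, Kcnj3, Kcnab1, Kcnn2, Cacna1e and Cacna2d1, the last of these and Cacna1e named after their values were seen. The median difference (mild EAE minus naive) was -162 nt over the channel genes and 2.67 nt over all genes tested, and the mean was lower in mild EAE for 75.5% of channel genes and 48.6% of all. The exact permutation test cannot go below p = 0.1 here, and the smallest adjusted p was 0.944. The count of 9 was 20 without mild EAE mouse 7, where 16.4% of all genes had this order, and 14 without naive mouse 2 or naive mouse 3, where 10.8% and 9.46% did.

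Kcnb2, a delayed rectifier, had 2791, 2120 and 1970 nt in naive mice and 277, 835 and 1015 nt in mild EAE mice, a difference of -1585 nt. All 62 of its footprints were intronic. In severe EAE it had 351, 0, 2533 and 162 nt, so that mouse 5 lay inside the naive range. Kcnq3, a subunit of the M-current that damps repetitive firing, had 3337, 1294 and 1090 nt in naive mice and 132, 284 and 613 nt in mild EAE mice. Kcnip1, which binds A-type channels, had 1740, 2322 and 843 nt against 309, 685 and 705 nt. Kcnma1, the pore of the large-conductance calcium-activated channel, had 692, 1574 and 326 nt against 129, 260 and 0 nt. In each of these 3 genes severe EAE mouse 5 lay above every mild EAE mouse, with 2104, 999 and 1213 nt.

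**Figure D3:**
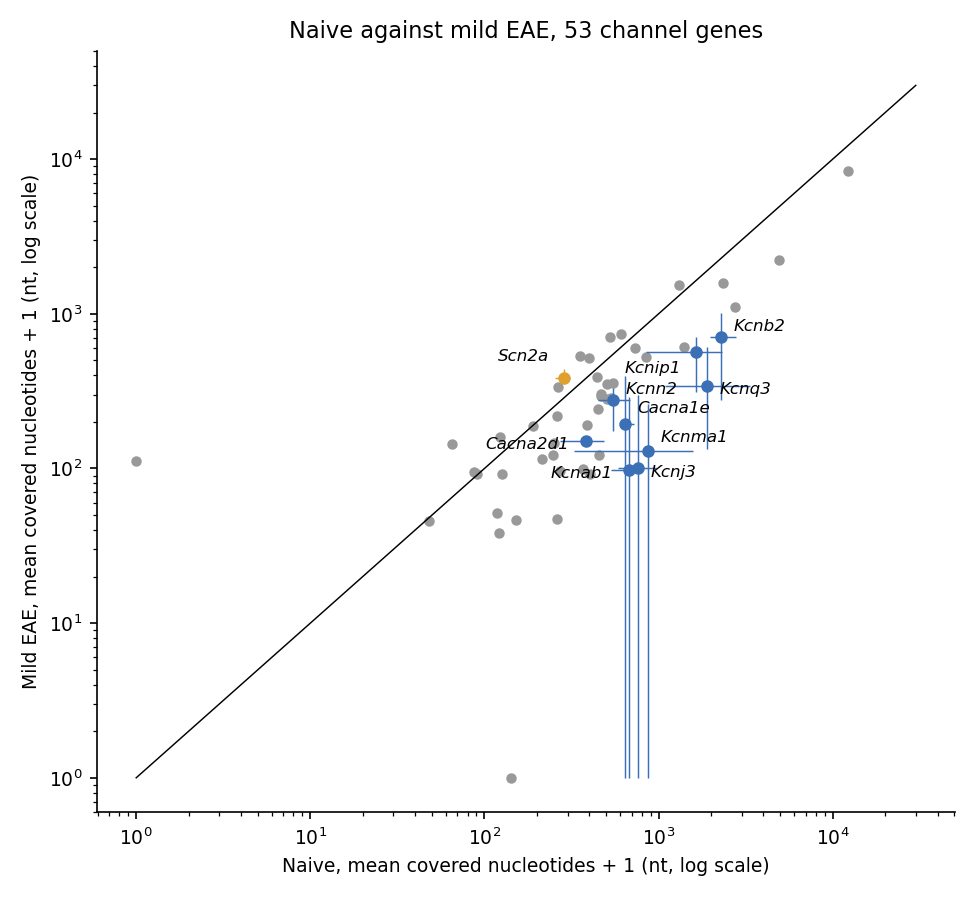
Mean covered nucleotides plus 1 of the 53 tested channel genes in naive mice (x axis, nt, log scale, n = 3) and mild EAE mice (y axis, nt, log scale, n = 3), 1 point per gene, with the line of equal means. The 9 genes with every naive mouse above every mild EAE mouse are blue and Scn2a is orange, both with bars from the lowest to the highest mouse. Grey points are the other genes.

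Of these genes, 3 also had every naive mouse above every severe EAE mouse, and so above all EAE mice. Kcnj3, a G protein-gated inward rectifier, had 586, 735 and 972 nt in naive mice, 0, 0 and 297 nt in mild EAE mice and 0, 0, 154 and 0 nt in severe EAE mice. Kcnab1, a beta subunit of voltage-gated potassium channels, had 533, 793 and 709 nt, then 0, 0 and 291 nt, then 0, 0, 128 and 0 nt. Kcnn2, a small-conductance calcium-activated channel, had 445, 511 and 680 nt, then 330, 174 and 320 nt, then 0, 0, 410 and 0 nt. Severe EAE mouse 5, whose list was the longest of all, lay below the naive mice in all 3 genes. For Kcnab1, 15 of 17 footprints also overlapped an antisense noncoding gene, A330015K06Rik, and the files give no strand, so its signal and that of the antisense RNA cannot be told apart. With only footprints that overlap a single annotated gene, Kcnab1 differed by 0 nt between mild EAE and naive mice and by 32 nt between severe EAE and naive mice, and Kcnn2, at -281 nt and -391 nt, no longer separated the groups.

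Naive above severe EAE was thus seen in 3 of 53 channel genes (5.66%), against 253 of 5481 (4.62%), a share near the background. Severe EAE above naive was seen in 0 channel genes and in 1 gene of all (0.0182%). Severe EAE above mild EAE was seen in 0 channel genes and 0% of all. Neither order was possible for a channel gene, since severe EAE mouse 2 had no footprint in any of them. Without severe EAE mouse 5, the naive mice lay above the severe EAE mice in 35 of 51 channel genes (68.6%) and in 39.9% of all genes. That mouse had footprints in each of the 39 channel genes that all naive mice shared, where severe EAE mice 1, 2 and 6 had 28.2%, 0% and 12.8% of them. Of the 2052 protein-coding genes that all naive mice shared, the severe EAE mice 5, 1, 2 and 6 had 94%, 27.3%, 2.83% and 10.2%, near the shares of the channel genes.

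Against all 7 EAE mice, naive mice lay above in 3 channel genes where 105 of all genes (1.92%) did. EAE above naive was seen in 0 channel genes and in 0.0182% of all genes. That order was not possible for a channel gene, since severe EAE mouse 2 had no footprint in any of them. No gene of 5481 passed the exact permutation test after Benjamini-Hochberg adjustment (smallest adjusted p = 0.471). Unadjusted p under 0.05 was found in 10 channel genes (18.9%) and in 344 of all genes (6.28%). These were Kcnb2, Kcnip1, Kcnq3, Kcnn2, Kcnj3, Kcnab1, Cacna2d1, Kcnh1, Kcnip3 and Kcnmb2, and all 10 had the lower mean in EAE. Kcnj3 had a mean of 764 nt in naive and 64.4 nt in EAE mice (exact permutation p = 0.00833, adjusted p = 0.471), and Kcnab1 678 nt and 59.9 nt (exact permutation p = 0.00833, adjusted p = 0.471), the smallest p that 3 against 7 mice allow. The count of 10 was 4, 5 and 6 without naive mouse 1, 2 or 3 and 19 without severe EAE mouse 5. The share over all genes was not counted with a mouse left out, so these shifts cannot be ascribed to channel genes. The mean was lower in EAE for 86.8% of channel genes and 61.2% of all genes tested.

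Some neuronal markers and 1 oligodendrocyte marker had the same order as these channel genes, and some immune markers the opposite one. Of 10 tested neuronal markers, 3 had every naive mouse above every mild EAE mouse, Rbfox3, Syt1 and Tubb3. Of 8 tested oligodendrocyte markers 1 did, Opalin, and of 7 astrocyte markers 0, where 5.36% of all genes did. Of 8 tested immune markers, 5 had every mild EAE mouse above every naive mouse, Cd74, C1qa, C1qb, Csf1r and H2-Aa. Of all genes 4.73% had that order. The summed covered nucleotides of the neuronal list were 4006 to 4942 nt in naive mice and 1537 to 2969 nt in mild EAE mice, and those of the immune list 0 to 131 nt and 1294 to 4171 nt. Without Syt1, a synaptic vesicle protein gene, the neuronal sums were 2147 to 3122 nt and 1065 to 2914 nt and overlapped, and the median difference of the 10 tested neuronal markers was -15 nt. In severe EAE the neuronal sum was 0 to 7326 nt and the immune sum 0 to 5166 nt. Oligodendrocyte sums were 2315 to 7285 nt in naive and 2479 to 7482 nt in mild EAE mice, and astrocyte sums 1295 to 4118 nt and 2703 to 5768 nt. Chat and the T cell gene Cd3e were at 0 in every mouse. Their part in the channel results was not tested.

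Of 31 genes whose products anchor, traffic or regulate these channels, 28 were tested. Naive mice lay above mild EAE mice in 4 of them, where 5.36% of all genes did, and the opposite order was seen in 0, where 4.73% of all genes had it. Naive mice lay above severe EAE mice in 3 of them, Unc79, Rims1 and Shank3, where 4.62% of all genes did. The 4 were Fgf12, which binds sodium channels, Dpp10, which binds A-type potassium channels, Adam22, which takes part in clustering potassium channels on axons, and Unc79 of the sodium leak channel complex. Unc79 had 452, 777 and 441 nt in naive mice and 0, 157 and 0 nt in mild EAE mice, and of the severe EAE mice only mouse 5 had any, 304 nt. The anchors of the axon initial segment and node had their groups overlapping, with Ank3 at 5476, 1874 and 4784 nt in naive mice against 3054, 1555 and 4449 nt in mild EAE mice.

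The separation of naive from mild EAE mice was counted in exons and introns apart. Counting exonic nucleotides alone, 0 of 31 channel genes with exonic footprints in at least 3 mice had every naive mouse above every mild EAE mouse, against 1.82% of all genes. Of the 9 genes above, Kcnb2, Kcnn2, Cacna2d1, Kcnip1, Kcnab1 and Kcnma1 had too few exonic footprints to enter this count. The exonic 0 is near the share over all genes and says nothing of them. Counting intronic nucleotides alone, 11 of 40 channel genes (27.5%) did, against 11.2% of all genes. The intronic count held Cacna1a and Cacnb2 beside 8 of the 9 genes above and lacked Cacna1e. For naive above severe EAE the intronic count was 9 of 40 channel genes (22.5%), against 9.34% of all genes. The exonic count was 0 of 31, with the same genes left out, against 2.69% of all genes. Hcn2 was among the 9, with 2, 136 and 2 intronic nt in naive mice and 1, 0, 0 and 0 nt in severe ones. Its exonic part was 558 nt in severe EAE mouse 1 and 1634 nt in severe EAE mouse 5.

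Kcnq1 needs separate treatment because its signal lies on another transcript's span. It held 356 footprints, 16.9% of those in channel genes, and 351 of them overlapped Kcnq1ot1, a long noncoding RNA transcribed on the opposite strand that silences neighbouring imprinted genes. Kcnq1 spans chr7:143106362-143427042 on the plus strand and Kcnq1ot1 chr7:143203458-143296549 on the minus strand, 29% of the Kcnq1 span. Of the 80812 nt covered in Kcnq1 over all mice, 80095 nt lay in Kcnq1ot1. The 5 footprints outside it were intronic and came from naive mice 1 and 2, mild EAE mouse 7 and severe EAE mouse 5. The files give no strand, so the transcripts cannot be told apart.

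**Figure D4:**
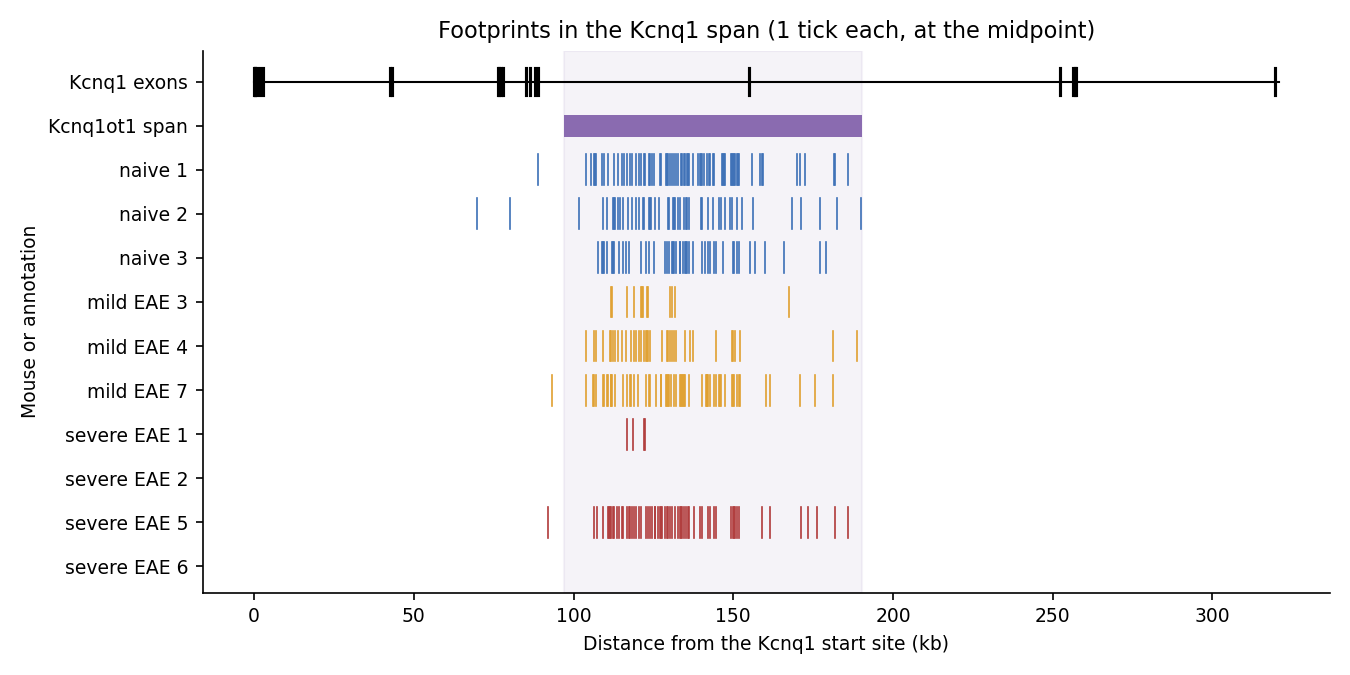
Footprints in the Kcnq1 span by mouse (rows, 1 tick per footprint at its midpoint), as distance from the Kcnq1 start site in kb, with Kcnq1 exons in black and the Kcnq1ot1 span in purple. Of 356 ticks, 351 belong to footprints that overlap the purple span, and severe EAE mice 2 and 6 have none.

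By mouse, the Kcnq1ot1 span had 17235, 9284 and 9741 covered nt in naive mice 1, 2 and 3, 2403, 8635 and 14135 nt in mild EAE mice 3, 4 and 7, and 789, 0, 17873 and 0 nt in severe EAE mice 1, 2, 5 and 6. Naive and mild EAE mice overlapped through mild EAE mouse 7. Footprints covered 18.5% of the span in naive mouse 1 and 19.2% in severe EAE mouse 5, the 2 highest values. A stretch of 139 nt within it was covered in 7 mice, printed here on the Kcnq1 strand as the longest of the stretches shared by most mice.
Kcnq1 intron and Kcnq1ot1, chr7:143222931-143222960, plus strand: TAGctttttgTAGTAGgatctgatgttttg
UAG density over these footprints was 13.8 to 16.6 per 1000 nt on the Kcnq1ot1 strand and 14.9 to 15.4 per 1000 nt on the Kcnq1 strand in naive mice, against 14.8 and 14.2 per 1000 nt over the whole span.

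Antisense or overlapping genes affected other members less. Without Kcnq1, 7.01% of 1754 channel gene footprints overlapped another annotated gene. All 23 footprints of Kcna6 did so, in the antisense gene Gm26673. For the share of footprints in channel genes, leaving out Kcnq1 gave a lowest naive value of 1.53%, in mouse 3, and a highest mild EAE value of 1.44%, in mouse 4, so that these groups no longer overlapped. Severe EAE mice 5 and 6, at 1.55% and 1.78%, lay above that naive mouse.

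Mice of a group shared channel sites. Stretches of more than 1 nt covered in at least 2 mice of a group numbered 109 in 31 genes in naive mice, 75 in 23 genes in mild EAE mice and 17 in 7 genes in severe EAE mice, without Kcnq1. In naive mice 49 of these stretches were intronic (45%) and 55 coding, and in mild EAE mice 18 were intronic (24%) and 54 coding. The coding stretches were thus about as many in both groups while the intronic ones were fewer in mild EAE. Shared stretches were not counted over all protein-coding genes, so this cannot be called particular to channel genes. The intronic share of footprints over all protein-coding genes was also lower in mild EAE, at 14.1 to 27.9% against 30.4 to 44.9% in naive mice. In severe EAE 2 of the 17 were intronic, and without mouse 5 only 3 stretches were left.

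Shared sites were found in 13 genes in naive mice alone, among them Kcnd2 with 8 stretches, Cacna1c with 7, and Cacna1e, Cacna2d1, Kcnj3, Kcnab1 and Kcnma1. They were found in naive and mild EAE mice for 14 genes and in all groups for 5 genes, among them Cacna1a, Hcn2 and Kcnq1. Kcnj10 and Scn8a had shared sites in mild and severe EAE mice, Kcna6, Kcnk2 and Scn3a in mild EAE mice alone and Kcna2 in severe EAE mice alone. Whether these sets differ beyond the sizes of the lists was not tested. The Kcnk2 stretch of mild EAE mice 3 and 4 also overlaps the pseudogene Pdcd5-ps. As described, Kcna6 footprints overlap Gm26673 and most Scn3a coding footprints share runs with other sodium alpha genes. The sites in mild EAE mice alone thus cannot be assigned to these genes with certainty. No stretch of a channel gene was covered in more than 7 mice.

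UAG was denser in intronic channel footprints than beside them in all but naive mouse 2. The motif (TAG in the genome, gene strand only) was counted in footprints within a single annotated gene and in a pair of equally long windows that began 200 nt to either side. In naive mice 1, 2 and 3 the density per 1000 nt was 23.7, 12.2 and 26.1 within intronic channel footprints, while their flanks had 15.3, 14.2 and 14.4, giving log2 ratios of 0.63, -0.21 and 0.86. Mild EAE mice 4 and 7 had log2 ratios of 0.94 and 0.72 and severe EAE mouse 5 had 0.53. Naive mouse 2 stood apart from the others in the same direction over all protein-coding genes, with -0.05.

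**Figure D5:**
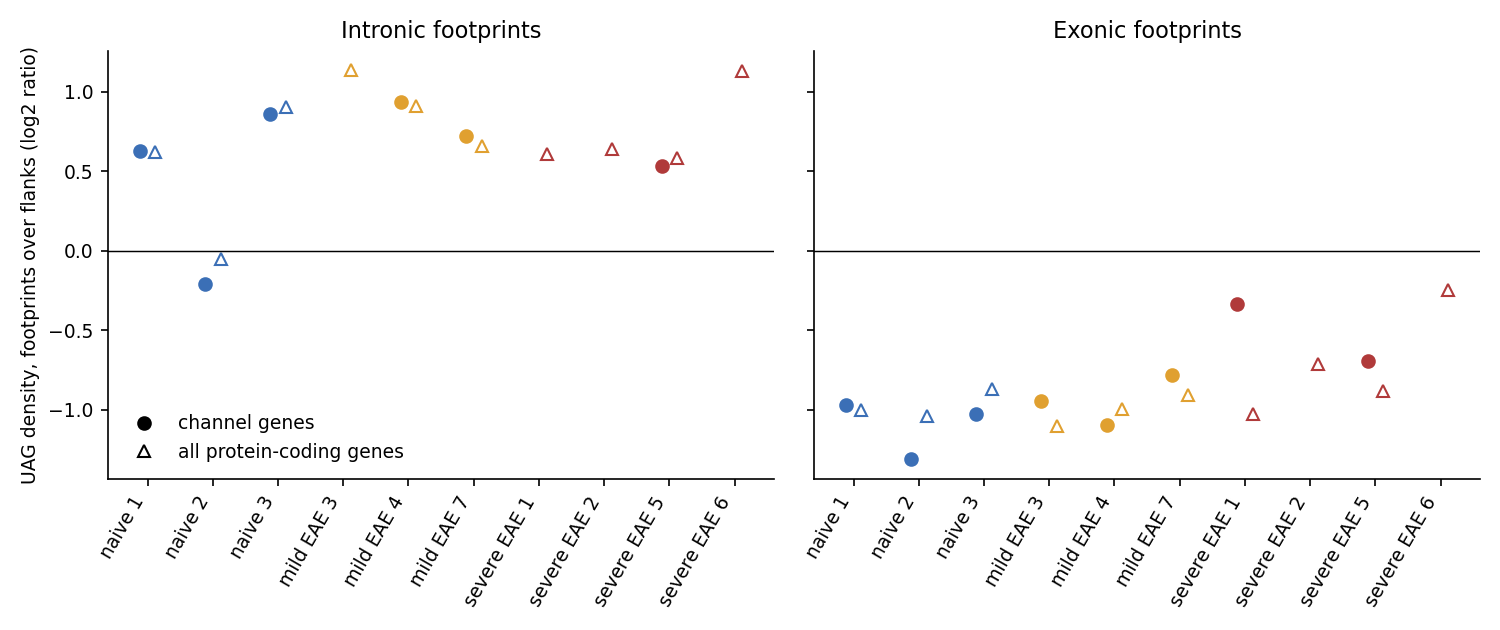
UAG density in footprints over that in flanking windows (log2 ratio) for each mouse with at least 20 footprints in the class, with intronic footprints at left and exonic ones at right. Filled circles are channel genes and open triangles all protein-coding genes. Intronic ratios lie above 0 in every mouse but naive mouse 2 and exonic ratios lie below 0.

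The channel genes had ratios close to those of all genes in the same mouse, where naive mice 1, 2 and 3 had 0.62, -0.05 and 0.91, mild EAE mice 4 and 7 0.91 and 0.66 and severe EAE mouse 5 0.58. In exonic footprints, whose flanks are often intronic, the ratio was below 0, with a mean of -1.1 ± 0.18 (SD, n = 3) in naive and -0.94 ± 0.16 (SD, n = 3) in mild EAE mice. The share of intronic channel footprints with at least 1 UAG was 89.5% in naive mouse 1 against 88% of its flanks, 71.4% against 84.2% in naive mouse 2 and 90.1% against 91% in naive mouse 3. In mice 1 and 3 footprints and flanks thus differed in the number of copies more than in the share with any. Repeat-masked sequence made up 37.1 to 44.2% of these footprints and 29.1 to 31.9% of their flanks in naive mice. In unmasked sequence alone the log2 ratios were 0.46, -0.32 and 0.49 in naive mice 1, 2 and 3. Mild EAE mice 4 and 7 had 0.5 and 0.46 there, and severe EAE mouse 5 had 0.38.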

How the data were processed

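CLIPseq was made from UV-crosslinked spinal cords of 10 mice with an anti-hnRNP A1 antibody, clone 9H10 by the labels. The authors trimmed reads with fastp after bcl2fastq 2.19.0.316, assembled contigs per library, placed them on GRCm38 with minimap2 2.17 (spliced), removed what the input and pooled IgG also held, and merged overlaps with bedtools. The deposited files, 1 list per mouse, give the chromosome, start and end of each footprint. They hold no count, score or other measured value, so no count model was used and the depth behind each footprint is unknown. The paper lists mapped unique reads for each library and describes sequencing depth as similar. Among the immunoprecipitations, the severe EAE mouse with the longest list had the most mapped reads, and a naive mouse had the fewest. The other severe EAE mice lay within or above the naive range. Whether depth affected the length of the lists was not tested.

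Genes came from GENCODE release M 21 (GRCm38 patch 6). Of the footprints, 135639 lay on chromosomes matched by name and 0 passed a chromosome end. A footprint counted for a gene when it overlapped the span by at least 1 nt, and its class came from its midpoint in the order coding, UTR, noncoding exon, intron. Covered nucleotides per gene were compared by two-sided exact permutation of the difference of means, with Benjamini-Hochberg adjustment over the 5481 protein-coding genes footprinted in at least 3 mice, and by counting genes whose groups did not overlap. The groups follow the labels' clinical scores, severe from 2.5 upward, and mice are numbered as in the labels. The members and lists were chosen with earlier results of these data known, so sums over members carry no p. Named genes were the 2 most covered of each role, those whose groups did not overlap (at most 6 per comparison and direction) and the 6 in the most mice. Sequence was read from the GRCm38 patch 6 genome of RefSeq. The scripts were tested on simulated data. Python 3.11.15, numpy 2.4.6, scipy 1.17.1, pysam 0.24.0 and matplotlib 3.10.9 were used.

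Alternatives were other limits on footprint length, footprints in a single gene, at least 50% of a footprint in the span, values relative to the list of the mouse, other definitions of intronic, no filter, a log2 scale, pairing by number as a replicate block, and leaving out the mice in turn. Leaving out Kcnq1, leaving out coding footprints that share 30 bases with another channel gene, counting exons or introns alone, and the count of genes higher in naive than in mild EAE were added after the data were seen. Results of some genes are not reported here.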

Additional observations from a re-analysis of the deposited data

Results flagged for a closer look

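In severe EAE, mouse 5 stood apart from the other 3 mice, with a gap to the nearest mouse of 0.942 of the group's range for footprints in channel genes and 0.949 for covered nucleotides in channel genes, both above Dixon's 95% limit for 4 mice. Chance alone exceeds that limit in about 5% of groups of normally distributed values. These values hold many zeros and lists of very unlike length, so that rate need not apply to them. Mouse 5 was also highest and past the limit in 23 of the 27 named genes, which come from the same 4 lists and are not independent of each other. The lists of severe EAE mice 1, 2 and 6 held only 2670, 209 and 673 footprints. The share over all genes past the limit was not counted, so this count cannot be ascribed to channel genes. The ratio was 0.947 for Cacna1a, 0.928 for Cacnb2, 0.861 for Kcnb2, 0.89 for Kcnj10, 0.956 for Kcnq1 and 0.919 for Scn8a. It was 1, with no covered nucleotide in the other 3 mice, for genes including Cacna1c, Cacna2d2, Cacna2d3, Cacnb4, Cacng2, Kcnab1, Kcnd2, Kcnip1, Kcnip4, Kcnj3, Kcnma1, Kcnn2, Kcnq3, Kcnt1, Scn1a and Scn2a. The list of this mouse was also the longest over the whole genome, at 31870 footprints. The paper, which numbers it otherwise, calls the mouse an outlier whose binding profile resembled that of naive and mild EAE mice. It also reports that the mouse was in remission shortly before the experiment ended. Whether this bears on its list was not tested.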

How the results depend on the processing

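The difference in channel genes footprinted (-15 for mild EAE minus naive, -35.2 for severe EAE minus naive and -26.6 for EAE minus naive) and in intronic share (-21.5, -34.1 and -27.8 percentage points) kept its direction under each alternative run and moved by less than 1 SD. Leaving out 1 mouse gave -19.5 to -9.5, -49.3 to -28.3 and -32.2 to -21.1 genes, and -27.8 to -11.2, -42 to -27.9 and -32 to -24.1 percentage points. Counts of separated genes moved more. Channel genes higher in naive than in mild EAE, 9 in the main comparison, were 10 to 20 with 1 naive or mild EAE mouse left out (20 without mild EAE mouse 7, 14 without naive mouse 2 or 3, where the share over all genes was 16.4%, 10.8% and 9.46% in place of 5.36%). They were 0 in exonic nucleotides alone, against 1.82% of all genes, a count that most of the 9 genes could not enter. Those higher in naive than in severe EAE, 3, were 3 to 35 with 1 mouse left out. They were 35 without severe EAE mouse 5, 7 without naive mouse 3 and 5 without naive mouse 2. The shares over all genes were then 39.9%, 8.56% and 9.67%, in place of 4.62%. Taken as a share of the nucleotides of the mouse they were 11, against 10.2% of all genes. They were 0 in exonic and 9 in intronic nucleotides, against 2.69% and 9.34% of all genes. Those higher in mild EAE than in naive, 1, were 1 to 4 with 1 mouse left out. They were 4 (7.69%) without mild EAE mouse 4, against 17.2% of all genes in place of 4.73%. Without mild EAE mouse 7 or naive mouse 3 they were 2, against 7.19% and 8.6% of all genes. Taken as a share of the nucleotides of the mouse they were 2, against 7.79%. In exonic or intronic nucleotides alone they were 0, against 5.88% and 3.08%. They were also 0 without coding footprints alike in sequence in another channel gene, where Scn2a differed by 4.33 nt for mild EAE minus naive and by -1.1 nt for EAE minus naive, and the other counts of separated genes tried stayed at 9 and 3. Channel genes with an unadjusted exact p under 0.05 for EAE against naive, 10, were 4 to 19 with 1 mouse left out. They were 4, 5 and 6 without naive mouse 1, 2 or 3 and 19 without severe EAE mouse 5. On the log2 scale they were 5, and 2 in exonic nucleotides. The share over all genes with such a p was not counted in these settings. As a share of the nucleotides of the mouse, 6 channel genes were higher in naive than in mild EAE (11.3%, against 5.55% of all genes). The cause of these shifts was not tested.

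Kcnab1 turned to a mean difference of 32 nt for severe EAE minus naive and 18.3 nt for EAE minus naive when only footprints in a single annotated gene were kept, which drops those that also overlap its antisense gene. No gene passed the adjusted threshold under any alternative run.

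The replicate block paired naive and EAE mice with the same number, which are different animals. The deviations of such pairs correlated at -0.0349, 0.132 and 0.00958 over 5481 genes. Of the 3 naive mice, 2 correlated best with the EAE mouse of their own number among the paired EAE mice. Whether mice of the same number share more than the number cannot be told from 3 pairs. With the block 0 channel genes had an unadjusted p under 0.05, since the sign-flip test of 3 pairs cannot go below 0.25, 0 genes passed after adjustment, and the difference in channel genes footprinted was -39.3.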
